A study of Mus musculus with 9 samples.

Results

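The genes described here are 32 mouse genes of the lysosome other than the cathepsins: soluble hydrolases, membrane proteins, sterol carriers, precursor proteins and subunits of the proton pump. They were taken by symbol from a table of 54532 genes, by a rule that names the genes and uses no measured value. RNA had been sequenced from cells labelled as myeloid cells and drawn from white cells of C57BL/6 mice aged 6 to 8 weeks. There are 3 groups of 3 libraries, lettered A to C: KO, with the genotype SOCS3 KO, and Gr_1 and fl, both of wild-type genotype. The labels give no treatment and do not spell out the names Gr_1 and fl, which are used here as they stand. No source used here gives the organ, the sort, the knockout allele, a driver of the deletion or whether a library is 1 animal. The p-values below therefore cover the spread among these libraries, which may be technical. The series' design asks how expression differs between the knockout and the wild-type groups, and its title ties the knockout to autophagy, the route by which cells carry their own parts to the lysosome.

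Lysosomes are acidic vesicles in which enzymes break down proteins, sugars, lipids and nucleic acids brought in by endocytosis, phagocytosis and autophagy. A multi-subunit ATPase with a membrane sector (V0) and a cytosolic sector (V1) pumps protons inward, heavily glycosylated membrane proteins line the inner face, and channels and carriers return the products to the cytosol. Many lysosomal genes share a promoter element, CLEAR, bound by the transcription factor TFEB and its relatives. Monocytes and macrophages are rich in lysosomes, and neutrophils hold related hydrolases in their granules.

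Values are FPKM, fragment counts divided by exon length and by a divisor for each library, so levels can be set beside each other across genes. The libraries held 18302890 to 21502351 counted fragments each, recovered from FPKM and exon length. The divisor was not that count: it came to 104% to 111% of the counted fragments in KO, 84.4% to 86.1% in Gr_1 and 101% to 107% in fl. For comparisons with Gr_1, the counts of called lysosomal genes and some single genes are also given under other scalings. Where no other scaling is given, a call or its absence in a comparison with Gr_1 may still depend on the scaling. Of the 32 genes, 31 reached 1 FPKM in at least 3 libraries and were tested, among 12289 genes in all. A gene is called changed where limma's two-sided moderated test on log2(FPKM + 1), fitted over all 9 libraries, gave a Benjamini-Hochberg adjusted p under 0.05 over all genes tested. Fitted changes are on that log2 scale, which understates changes of genes at a few FPKM, and are given with their standard error (SE); group means are given with SD over 3 libraries. The exact permutation test of 3 libraries against 3 cannot go below p = 0.1.

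Socs3 itself averaged 8.12 ± 1.25 FPKM in KO, 35.5 ± 2.21 FPKM in Gr_1 and 3.76 ± 0.318 FPKM in fl, so the libraries labelled KO did not have less Socs3 RNA than fl. Lyz2, a lysozyme of myeloid cells, did set them apart, at 56.3 ± 3.30 FPKM in KO, 10663 ± 163 FPKM in Gr_1 and 9165 ± 725 FPKM in fl. Library KO C lay between KO A and KO B: Xist, the transcript that marks the inactive X chromosome, stood at 0.0028 FPKM in KO A, 58.5 FPKM in KO B and 26.3 FPKM in KO C, and the summed Y-linked genes at 26.5, 0 and 14.2 FPKM in the same order. No Gr_1 or fl library exceeded 0.0104 FPKM of Xist, and their summed Y-linked genes ran from 16.6 FPKM (fl C) to 39.3 FPKM (Gr_1 C). KO B and KO C thus differed from all Gr_1 and fl libraries in sex-linked RNA. The part of sex in the comparisons with KO, also for the X-linked Gla, Lamp2 and Atp6ap1, was not tested. The level of KO C lay between those of KO A and KO B for 25 of the 31 tested lysosomal genes (80.6%), beside 61.5% of all genes tested. Whether KO C is independent of KO A and KO B was not tested; if it is not, KO holds 2 independent libraries, and the KO means, SDs and p-values over 3 rest on fewer than they count. Results are therefore given with all KO libraries and, as "without KO C", with KO A and KO B alone.

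The promoters are shown because the CLEAR element is the sequence feature for which lysosomal genes are known. RefSeq promoter windows (GRCm38.p6, 250 bases before to 50 bases after an annotated start) were found for 28 of the 32 genes, in 33 windows. The E-box CACGTG, a palindrome, was searched alone, with one flanking base as TCACGTG on either strand, and as the full CLEAR palindrome, in which GT precedes and AC follows CACGTG; each longer motif contains the shorter ones. CACGTG was found for 10 of the 28 genes (35.7%), against 8.09% of all 27025 genes with a window, and TCACGTG for the same count of 10 (35.7%), against 4.29%. The full palindrome was found for 1 gene, Cln3 (3.57%), against 0.37% of all genes. It lay in a window at a start inside the gene (chr7:126583187-126583486). The Cln3 window at the gene's 5′ end (chr7:126585768-126586067) held no CACGTG. Lgmn likewise had a window with a match and another without. The stretches below run 5′ to 3′ on the gene's own strand, with every match to TCACGTG on either strand in capitals.
Lamp1 (chr8:13159087-13159163, plus strand): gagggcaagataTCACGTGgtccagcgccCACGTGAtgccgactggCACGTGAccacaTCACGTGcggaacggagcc
Mcoln1 (chr8:3500435-3500492, plus strand): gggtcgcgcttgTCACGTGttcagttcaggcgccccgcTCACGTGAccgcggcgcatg
Cln3 (chr7:126583339-126583397, minus strand): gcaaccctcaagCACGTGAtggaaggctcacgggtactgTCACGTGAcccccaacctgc
Glb1 (chr9:114401017-114401047, plus strand): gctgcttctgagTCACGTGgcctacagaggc
Gaa (chr11:119267810-119267840, plus strand): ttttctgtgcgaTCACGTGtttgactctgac
Gla (chrX:134601181-134601245, minus strand): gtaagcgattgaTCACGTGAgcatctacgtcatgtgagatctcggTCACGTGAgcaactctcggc
Lgmn (chr12:102439124-102439154, minus strand): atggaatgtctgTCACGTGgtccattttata
Atp6v0b (chr4:117887330-117887378, minus strand): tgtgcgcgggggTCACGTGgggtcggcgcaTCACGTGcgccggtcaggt
Atp6v0d1 (chr8:105566049-105566080, minus strand): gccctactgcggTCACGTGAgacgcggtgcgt
Atp6v1a (chr16:44139372-44139403, minus strand): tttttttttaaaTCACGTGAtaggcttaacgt
Lamp1 carried 4 E-boxes between positions -62 and -10 from its start, and Mcoln1, Cln3, Gla and Atp6v0b carried 2 each. In the windows with a match, the last bases after the start lay unbroken in a GENCODE M21 transcript for 8 genes, but not for Lgmn and Atp6v0d1. This check also fails where the 2 annotated starts differ by some bases, or where an exon ends within those bases. The Atp6v0d1 window (chr8:105566015-105566314) spans the 5′ end of the gene in GENCODE, at 105566047. No match was found in the windows of Psap, Naaa, Npc2, Lipa, Grn or Atp6v0a1, a statement only about those letters in those windows. Those of Naaa, Grn and Atp6v0a1 failed the same check. The Naaa window (chr5:92278132-92278431) nonetheless spans the 5′ end of the gene, at 92278170. Whether any of these windows is the promoter used was not tested.

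The 32 genes spanned a wide range of levels. Psap, the precursor of the saposins that present sphingolipids to lysosomal hydrolases, had the highest mean over the 9 libraries at 841 FPKM, and Atp6v1h the lowest mean of the tested genes at 4.65 FPKM. Atp6v0d2, a V0 subunit best known from osteoclasts and macrophages, was not tested: it had 0.222, 0.254 and 0.355 FPKM in KO A to C, 0.413, 0.243 and 0.230 FPKM in Gr_1 A to C, and 0.602, 0.461 and 0.159 FPKM in fl A to C. These values rest on 8 to 36 fragments a library and overlap among all groups. The tested genes had between 231 fragments (Gaa) and 77299 fragments (Psap) in a library.

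**Figure D1:**
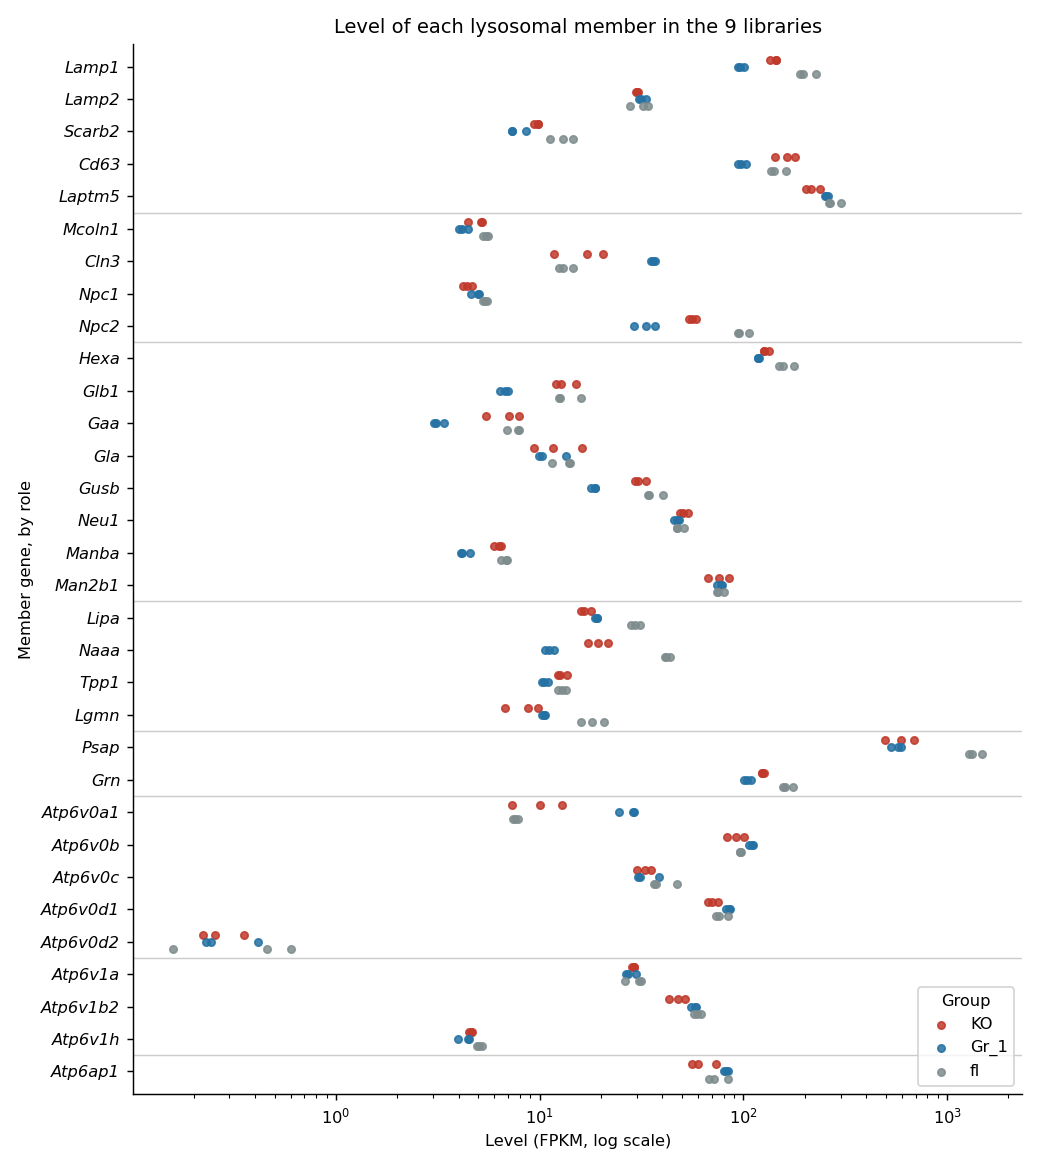
Level of each of the 32 genes in each library, in FPKM on a log axis, with 1 point per KO, Gr_1 and fl library and the genes grouped by role. Psap stands highest (mean 841 FPKM) and Atp6v0d2 lowest (under 1 FPKM in every library).

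Summed over the 32 genes, FPKM came to 2093 ± 145 in KO, 2006 ± 31.6 in Gr_1 and 3177 ± 221 in fl. The lowest fl library, at 3024 FPKM, lay above the highest KO library, at 2240.0 FPKM. Psap made up 28.2% ± 2.73 of the sum in KO, 28.3% ± 1.15 in Gr_1 and 42.9% ± 0.474 in fl. Without Psap the sum was 1501 ± 47.9 FPKM in KO, 1438 ± 10.6 FPKM in Gr_1 and 1815 ± 114 FPKM in fl, and every fl library, at 1744 FPKM or more, was still above all others. In bulk RNA such as this, fewer cells of a lysosome-rich type and less lysosomal RNA per cell cannot be told apart.

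In KO against fl, lysosomal genes were lower or did not pass the test. Of the 31 tested genes 12 were called lower, beside 6.52% of all genes tested, and 0 were called higher, beside 4.48%. At an unadjusted p under 0.05 the counts were 14 lower and 0 higher, and voom on recovered fragments called 12 lower, beside 7.07% of all genes, and 0 higher, beside 5.93%. The libraries of both groups did not overlap, with KO lower, for 17 of the 31 genes, beside 17.9% of all genes. The median fitted change was -0.14 over the lysosomal genes and -0.01 over all genes tested. Without KO C, 7 genes stayed lower (Psap, Naaa, Lgmn, Npc2, Lipa, Lamp1 and Grn), beside 3.1% of all genes, and 0 were higher, beside 1.6%. Leaving out each of the 9 libraries in turn kept the call of those 7 in every fit, whereas Scarb2, Laptm5, Atp6v1b2, Hexa and Npc1 each lost the call in at least 5 of the 9. The count lower was 7 without any one of Gr_1 A, Gr_1 B, KO B, KO C or fl B. Among these fits, the share of all genes is given only for that without KO C.

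In Gr_1 against fl, both wild type, hydrolases, membrane proteins and precursors were mostly lower and a V0 subunit was higher. Of the 31 tested genes 17 were called lower, beside 31.4% of all genes tested, and 2 were called higher, beside 30%. The median fitted change was -0.27 over the lysosomal genes and -0.03 over all genes. Every one of these calls except the lower call of Atp6v1h held whichever of the 9 libraries was left out. The Gr_1 libraries differed from fl at most genes: the summed FPKM of all genes was 482567 ± 6246 in Gr_1 against 362779 ± 20721 in fl, and when every library was rescaled to the same sum the median of all genes moved by -0.35 and 29 of the 31 genes were called lower, beside 54.3% of all genes, and 2 higher, beside 15.5%. Both comparisons share the fl libraries, so their values are set side by side below without a count of common genes.

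**Figure D2:**
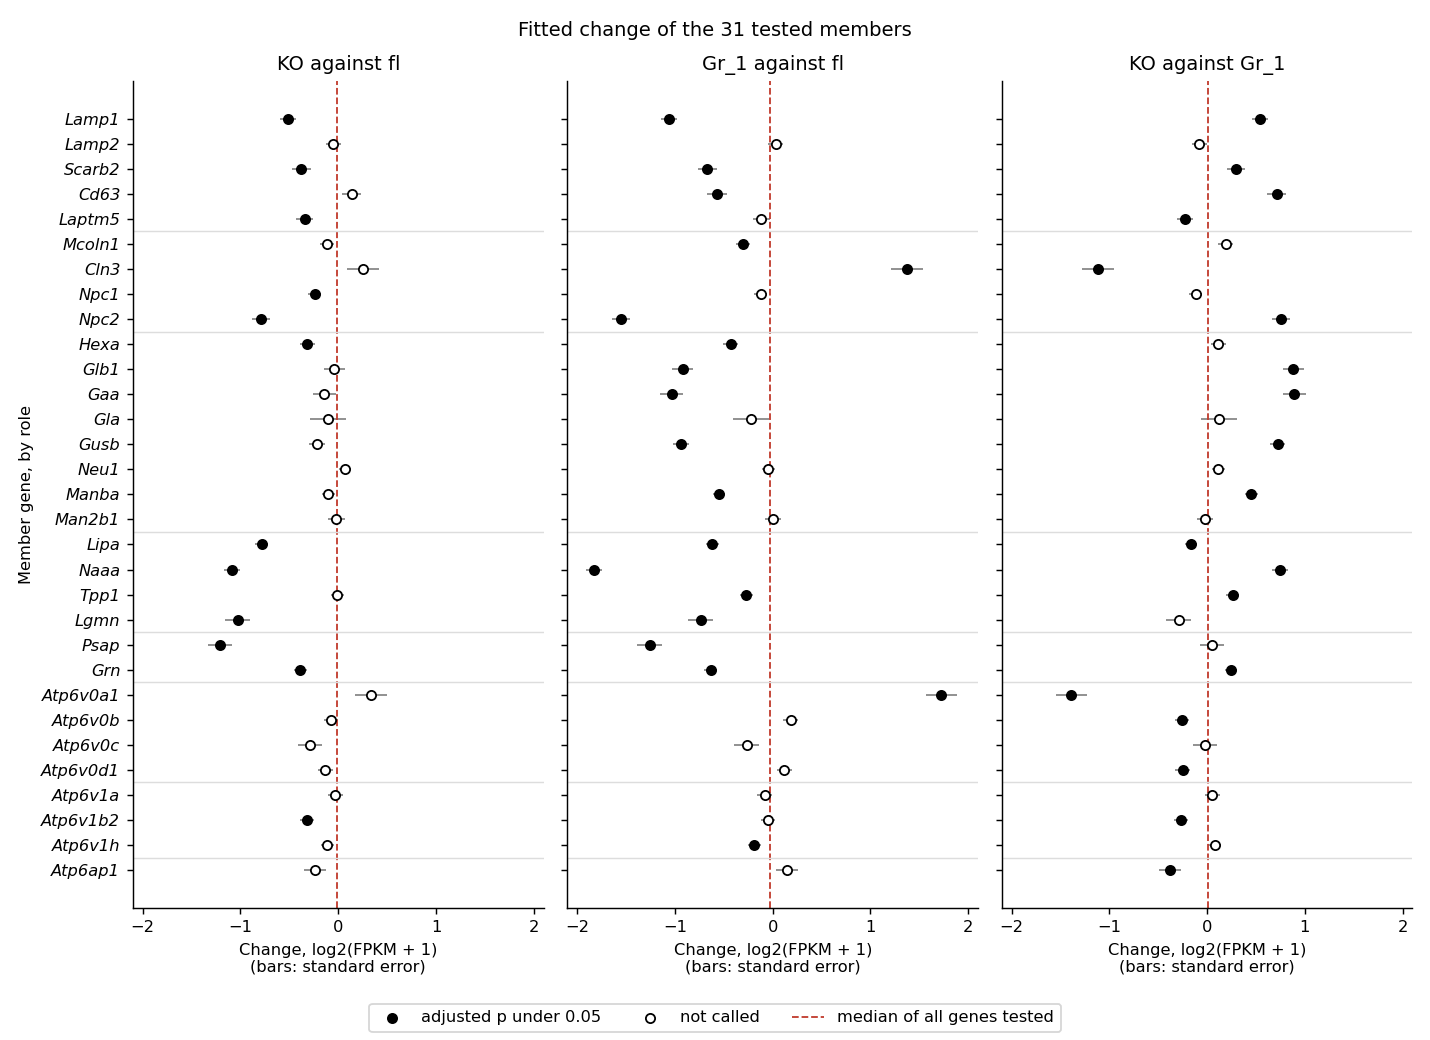
Fitted change in log2(FPKM + 1), with bars for its standard error, for the 31 tested genes, in KO against fl, Gr_1 against fl and KO against Gr_1, grouped by role; filled points passed the test and the dashed line is the median of all genes tested. In KO against fl the called genes run from -1.21 (Psap) to -0.24 (Npc1); in Gr_1 against fl from -1.83 (Naaa) to 1.72 (Atp6v0a1).

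The precursor proteins had the largest difference in summed FPKM of any role, with 717 ± 99.1 in KO, 673 ± 30.5 in Gr_1 and 1525 ± 117 in fl. Psap (chr10:60277627-60302597, plus strand, GRCm38) had 689, 494 and 595 FPKM in KO A to C, 577, 533 and 594 FPKM in Gr_1 A to C, and 1280.3, 1322 and 1484 FPKM in fl A to C. All KO and Gr_1 libraries lay below all fl libraries, and the ranges of KO and Gr_1 overlapped. Psap was 2.30-fold lower in KO than in fl (log2 -1.21 ± 0.13 SE, limma adjusted p = 0.00104, and 0.00821 without KO C) and 2.40-fold lower in Gr_1 than in fl (-1.26 ± 0.13, adjusted p = 4.87e-05). Grn, the precursor of the granulins, a secreted protein needed for normal lysosomal enzyme function, had 126, 123 and 124 FPKM in KO, 109, 105 and 101 FPKM in Gr_1, and 159, 156 and 174 FPKM in fl. The 3 groups did not overlap, with fl highest and Gr_1 lowest. Grn was 1.31-fold lower in KO than in fl (-0.39 ± 0.06, limma adjusted p = 0.00666, and 0.0407 without KO C) and 1.56-fold lower in Gr_1 than in fl (-0.63 ± 0.06, adjusted p = 5.36e-05).

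Of the lipid and protein hydrolases, 3 of the 4 tested were called lower in KO against fl, beside 6.52% of all genes tested. All 4 were called lower in Gr_1 against fl, beside 31.4% of all genes. Naaa (chr5:92257659-92278170, minus strand), the amidase that breaks down N-acylethanolamines such as palmitoylethanolamide, had 21.7, 17.3 and 19.2 FPKM in KO, 11.1, 10.7 and 11.7 FPKM in Gr_1, and 41.6, 43.6 and 41.4 FPKM in fl. The groups were fully apart in the order Gr_1, KO, fl. The gene was 2.17-fold lower in KO than in fl (-1.09 ± 0.08, limma adjusted p = 0.000456, and 0.00462 without KO C) and 3.78-fold lower in Gr_1 than in fl (-1.83 ± 0.08, adjusted p = 1.37e-06).

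Lipa (chr19:34492318-34527474, minus strand), the acid lipase that frees cholesterol and fatty acids from lipoprotein lipids, had 17.8, 16 and 16.6 FPKM in KO, 19.2, 19.1 and 18.6 FPKM in Gr_1, and 28.2, 29.4 and 31.3 FPKM in fl. Here KO was the lowest group, just under Gr_1, and fl stood apart above both. In KO against Gr_1, Lipa changed by -0.17 (limma adjusted p = 0.0482, and 0.133 without KO C). That call was also lost by voom, with quantile normalization and without the 10 most abundant genes in the scaling. The fitted change was -0.78 ± 0.06 in KO against fl (limma adjusted p = 0.000456, and 0.00462 without KO C) and -0.62 ± 0.06 in Gr_1 against fl (adjusted p = 5.32e-05). Lgmn (chr12:102394084-102439813, minus strand), the asparaginyl endopeptidase that processes cathepsins and antigens, had 9.84, 6.77 and 8.81 FPKM in KO, 10.6, 10.6 and 10.3 FPKM in Gr_1, and 16, 20.6 and 18.0 FPKM in fl. Every KO library lay below every Gr_1 library, and all of them below fl. The change of Lgmn in KO against Gr_1, -0.29, was not called in the main fit (limma adjusted p = 0.0789). Lgmn fell by 1.03 ± 0.13 in KO against fl (limma adjusted p = 0.0019, and 0.0108 without KO C) and by 0.73 ± 0.13 in Gr_1 against fl (adjusted p = 0.00104).

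Tpp1, the tripeptidyl peptidase lost in a childhood form of neuronal ceroid lipofuscinosis, behaved otherwise, with 13.7, 12.5 and 12.3 FPKM in KO, 10.3, 10.9 and 10.4 FPKM in Gr_1, and 12.9, 13.5 and 12.3 FPKM in fl. KO and fl overlapped, and Gr_1 lay below both. It was called lower in Gr_1 against fl (-0.27 ± 0.07, limma adjusted p = 0.00617) and its change in KO against fl was -0.01, with a 95% interval of -0.16 to 0.14.

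Glycosidases trim sugars from glycoproteins, glycolipids, glycogen and glycosaminoglycans. Of the 8 in the list, 1 was called lower in KO against fl (0 without KO C), beside 6.52% of all genes tested. In Gr_1 against fl 5 were called lower, beside 31.4% of all genes. None was called higher in either, beside 4.48% and 30%. The difference between these counts was not tested. Gusb, the beta-glucuronidase, had 29.4, 33.1 and 30.4 FPKM in KO, 17.8, 18.6 and 18.8 FPKM in Gr_1, and 34.0, 34.6 and 40.2 FPKM in fl. The KO libraries lay just under fl without overlap, and Gr_1 far under both. Gusb was 1.97-fold lower in Gr_1 than in fl (-0.94 ± 0.08, limma adjusted p = 1.77e-05), and its change in KO against fl, -0.22 with a 95% interval of -0.40 to -0.04, did not pass (adjusted p = 0.12).

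Glb1, the beta-galactosidase lost in GM1 gangliosidosis, had 12, 15.0 and 12.7 FPKM in KO, 6.97, 6.39 and 6.77 FPKM in Gr_1, and 12.6, 12.5 and 15.9 FPKM in fl. Gaa, the glucosidase that degrades glycogen and is lost in Pompe disease, had 5.44, 7.91 and 7.05 FPKM in KO, 3.09, 3.40 and 3.02 FPKM in Gr_1, and 6.88, 7.95 and 7.79 FPKM in fl. For both genes KO overlapped fl and Gr_1 lay below each of them. In Gr_1 against fl, Glb1 changed by -0.92 ± 0.11 (limma adjusted p = 0.00012) and Gaa by -1.03 ± 0.12 (adjusted p = 9.33e-05), while in KO against fl the changes were -0.04 and -0.14. Manba, the beta-mannosidase, had 5.94 to 6.46 FPKM in KO, 4.13 to 4.57 FPKM in Gr_1 and 6.49 to 6.88 FPKM in fl (-0.55 ± 0.06 in Gr_1 against fl, limma adjusted p = 0.000108), with KO just under fl and Gr_1 well under both.

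Hexa, the alpha chain of beta-hexosaminidase lost in Tay-Sachs disease, was the most abundant glycosidase, with 133, 127 and 126 FPKM in KO, 118, 119.9 and 118 FPKM in Gr_1, and 149, 156 and 178 FPKM in fl. It was the glycosidase called lower in KO against fl (-0.32 ± 0.08, limma adjusted p = 0.0301), but not without KO C (adjusted p = 0.124). In Gr_1 against fl it changed by -0.43 ± 0.08 (adjusted p = 0.0011). Neu1, the sialidase, lay at 48.8 to 53.7 FPKM in KO, 45.6 to 48.4 FPKM in Gr_1 and 47.1 to 51.3 FPKM in fl, and Man2b1, the alpha-mannosidase, at 67.2 to 84.5 FPKM over the 9 libraries. Neither was called in any comparison in the main fit. Neu1 was called in both comparisons with Gr_1 under quantile normalization, equal FPKM sums and scaling without the 10 most abundant genes. Man2b1 was called in both with equal FPKM sums, and in KO against Gr_1 also with quantile normalization. Gla, the X-linked alpha-galactosidase lost in Fabry disease, spread widely within KO, with 9.42 FPKM in KO A, 16.1 FPKM in KO B and 11.7 FPKM in KO C. It had 9.88 to 13.5 FPKM in Gr_1 and 11.5 to 14.1 FPKM in fl, and was not called in the main fit. Among the other fits, Gla was called only in Gr_1 against fl with equal FPKM sums.

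Of the 5 membrane proteins, 3 were called lower in KO against fl, beside 6.52% of all genes tested, and 1 without KO C, beside 3.1%. In Gr_1 against fl 3 were called lower, beside 31.4% of all genes. Lamp1 (chr8:13159161-13175338, plus strand), a main glycoprotein of the inner lysosomal surface, had 145, 135 and 145 FPKM in KO, 94.2, 95.8 and 101 FPKM in Gr_1, and 189, 195 and 226 FPKM in fl. The 3 groups were apart, with fl highest and Gr_1 lowest. Lamp1 changed by -0.52 ± 0.08 in KO against fl (1.44-fold lower, limma adjusted p = 0.00508, and 0.0259 without KO C) and by -1.06 ± 0.08 in Gr_1 against fl (2.1-fold lower, adjusted p = 1.13e-05).

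Lamp2, its X-linked partner that also serves chaperone-mediated autophagy, had 30.4, 30.0 and 29.7 FPKM in KO, 33.2, 31.3 and 30.9 FPKM in Gr_1, and 33.9, 32.2 and 27.7 FPKM in fl. The fl libraries spanned both other groups. The change was -0.05 ± 0.08 in KO against fl (95% interval -0.23 to 0.13, limma adjusted p = 0.727) and 0.03 ± 0.08 in Gr_1 against fl (-0.15 to 0.21, adjusted p = 0.76). The ratio of Lamp1 to Lamp2 FPKM was 4.71 ± 0.192 in KO, 3.05 ± 0.217 in Gr_1 and 6.60 ± 1.38 in fl.

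Scarb2, the receptor that carries glucocerebrosidase to the lysosome, had 9.37, 9.84 and 9.85 FPKM in KO, 7.30, 7.35 and 8.55 FPKM in Gr_1, and 11.3, 13 and 14.5 FPKM in fl. The groups did not overlap. It was called lower in KO (-0.38 ± 0.10, limma adjusted p = 0.0382, and 0.111 without KO C) and in Gr_1 (-0.67 ± 0.10, adjusted p = 0.000331), each against fl. Laptm5, a lysosomal membrane protein of blood cells, had 239, 202 and 215 FPKM in KO, 251 to 260.4 FPKM in Gr_1, and 263 to 302 FPKM in fl, and was called lower in KO (-0.34 ± 0.09, limma adjusted p = 0.0358, and 0.13 without KO C) but not in Gr_1 (-0.12, adjusted p = 0.265). Both groups lay below all fl libraries. Laptm5 was also called lower in Gr_1 against fl with equal FPKM sums and without the 10 most abundant genes in the scaling.

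Cd63, the tetraspanin of lysosomes, exosomes and azurophil granules, was called lower in Gr_1 and not in KO, each against fl. It had 143, 180 and 163 FPKM in KO, 97.9, 103 and 93.9 FPKM in Gr_1, and 137, 141 and 162 FPKM in fl. KO and fl overlapped and Gr_1 lay below both. The change was 0.14 ± 0.10 in KO against fl (95% interval -0.09 to 0.36, limma adjusted p = 0.417) and -0.57 ± 0.10 in Gr_1 against fl (adjusted p = 0.00105). Cd63 has a named pseudogene, Cd63-ps, with which reads could have been shared.

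**Figure D3:**
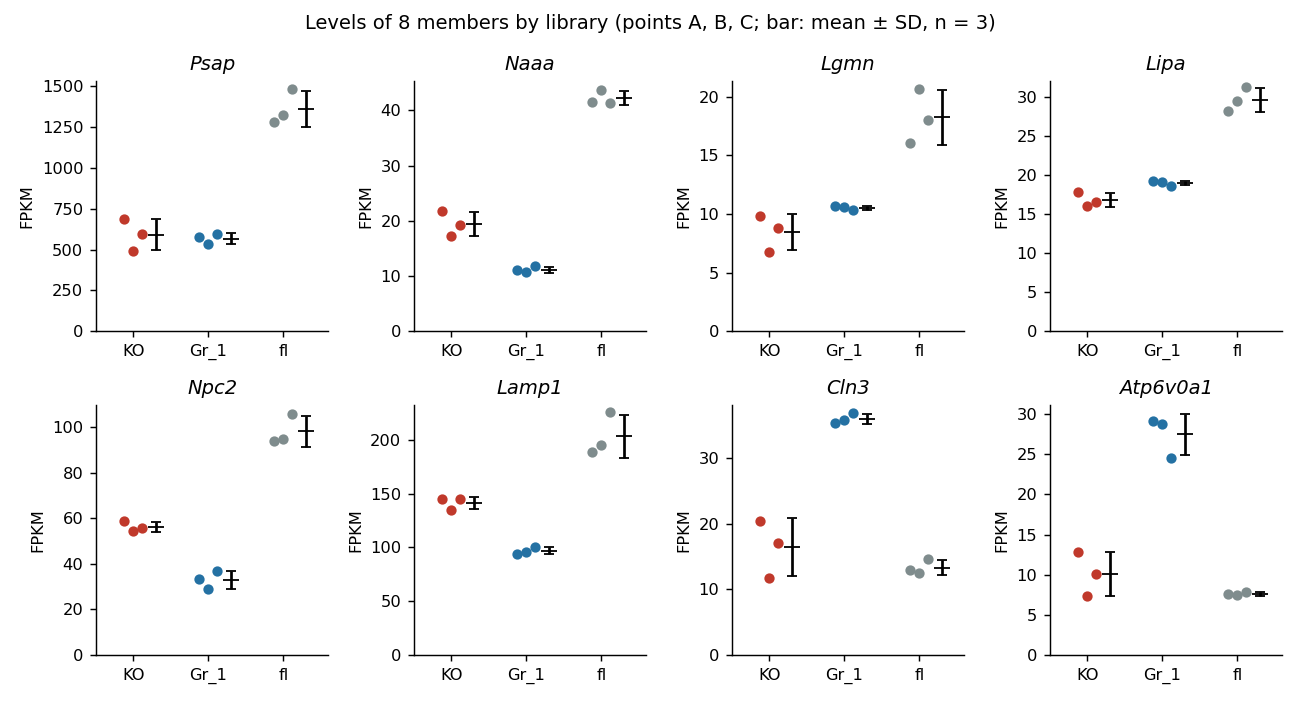
FPKM of 8 genes in each library, with the group mean ± SD as a black bar and each axis starting at 0; the 8 were chosen after their values were seen. Psap, Naaa, Lipa and Npc2 are higher in all fl libraries than in any KO or Gr_1 library, and Cln3 and Atp6v0a1 are highest in Gr_1.

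The sterol carriers Npc1 and Npc2, which hand cholesterol out of the lysosome and are lost in Niemann-Pick disease type C, had unlike levels. Npc2 (chr12:84754562-84773152, minus strand), the soluble one, had 58.7, 54.2 and 55.9 FPKM in KO, 33.4, 28.9 and 36.7 FPKM in Gr_1, and 94.0, 94.6 and 106 FPKM in fl. The groups were far apart, with KO in the middle. Npc2 changed by -0.79 ± 0.09 in KO against fl (1.75-fold lower, limma adjusted p = 0.0015, and 0.0109 without KO C) and by -1.55 ± 0.09 in Gr_1 against fl (2.98-fold lower, adjusted p = 3.61e-06).

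Npc1, the membrane protein, had 4.68, 4.19 and 4.38 FPKM in KO, 5.0, 4.6 and 5.02 FPKM in Gr_1, and 5.29, 5.37 and 5.53 FPKM in fl. It was called lower in KO against fl (-0.24 ± 0.06, limma adjusted p = 0.0475) but in no fit with any one library left out (adjusted p = 0.159 without KO C), and not in Gr_1 against fl (-0.12 ± 0.06, adjusted p = 0.128). With equal FPKM sums, and without the 10 most abundant genes in the scaling, Npc1 was called lower in Gr_1 against fl. The ratio of Npc2 to Npc1 FPKM was 12.8 ± 0.193 in KO, 6.76 ± 0.517 in Gr_1 and 18.2 ± 0.857 in fl. Mcoln1, the calcium channel that signals lysosomal stress, had 5.24, 4.47 and 5.14 FPKM in KO, 4.18, 4.45 and 4.0 FPKM in Gr_1, and 5.27, 5.60 and 5.43 FPKM in fl, and was called lower in Gr_1 against fl (-0.30 ± 0.07, limma adjusted p = 0.00599) but not in KO against fl (-0.12, adjusted p = 0.359).

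Cln3 (chr7:126571207-126585817, minus strand), the membrane protein lost in juvenile Batten disease, ran the other way. It had 20.5, 11.7 and 17.1 FPKM in KO, 35.3, 35.8 and 36.9 FPKM in Gr_1, and 13, 12.4 and 14.6 FPKM in fl. Gr_1 lay far above both other groups, and the KO libraries spanned fl. Cln3 was 2.70-fold higher in Gr_1 than in fl (1.37 ± 0.16, limma adjusted p = 0.000125), and its change in KO against fl was 0.25 (95% interval -0.12 to 0.62, adjusted p = 0.368), called higher only without KO B (adjusted p = 0.0208). Cln3 shares 7.65% of its exon bases with Apobr on the other strand, whose level was 53.2 ± 14.9 FPKM in KO, 128 ± 10.4 FPKM in Gr_1 and 44.6 ± 3.88 FPKM in fl. No source used here says whether the counting used strand, and the part of Apobr in the Cln3 values was not tested.

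Of the 8 tested subunits of the proton pump, 1 was called lower in KO against fl (12.5%, beside 6.52% of all genes tested). In Gr_1 against fl 1 was lower and 1 higher (12.5% each, beside 31.4% and 30% of all genes). Of the other 23 genes, 11 were lower in KO, and 16 lower and 1 higher in Gr_1. Without KO C, no pump call was left in KO against fl, and 7 of the 23 stayed lower. The median change of the pump subunits was -0.12 in KO against fl and 0.03 in Gr_1 against fl, and that of the other 23 genes -0.22 and -0.57; no test of the pump against the rest was made. Rescaled to equal FPKM sums, 7 of the 8 subunits were called lower in Gr_1 against fl, beside 54.3% of all genes. Their median was then -0.37, close to the -0.36 of all genes, so their direction in that comparison depends on the scaling.

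Atp6v0a1 (chr11:101009452-101063719, plus strand), one of 4 alternative a subunits that place the pump in a given membrane, had 12.8, 7.34 and 10.1 FPKM in KO, 29.2, 28.7 and 24.6 FPKM in Gr_1, and 7.58, 7.41 and 7.80 FPKM in fl. Every Gr_1 library lay above all others, and the KO libraries reached both under and above fl. It was 3.62-fold higher in Gr_1 than in fl (1.72 ± 0.16, limma adjusted p = 3.03e-05). In KO against fl the change was 0.34 (95% interval -0.03 to 0.70, adjusted p = 0.222), called higher only without KO B (adjusted p = 0.025).

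Among the other a subunits, Tcirg1 (a3), which serves lysosomes and the osteoclast border, had the highest FPKM, at 76.2 ± 4.96 in KO, 54.4 ± 1.35 in Gr_1 and 82.8 ± 2.42 in fl. It was called lower in Gr_1 against fl (-0.60, limma adjusted p = 7.1e-05) and not in KO against fl (-0.12, adjusted p = 0.282). Of the summed FPKM of the a subunits, Atp6v0a1 made up 10.5% ± 2.03 in KO, 30.0% ± 2.38 in Gr_1 and 7.65% ± 0.0774 in fl, and Tcirg1 80.3% ± 1.35, 59.4% ± 2.24 and 83.4% ± 0.650 in the same order of groups. Atp6v0a2 stayed between 8.42 and 9.72 FPKM in all libraries, and Atp6v0a4 was at most 0.0251 FPKM.

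**Figure D4:**
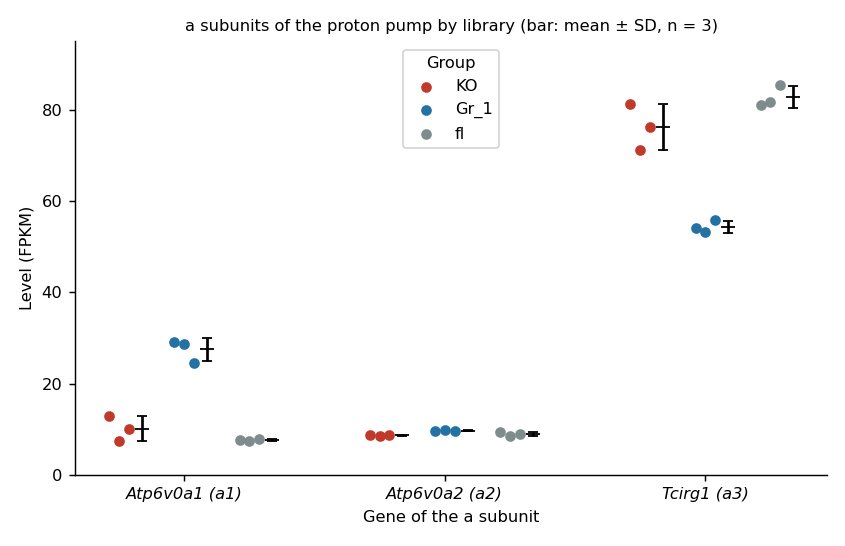
FPKM of the pump's a subunits Atp6v0a1, Atp6v0a2 and Tcirg1 in each library, with the group mean ± SD as a black bar. Atp6v0a1 is at 24.6 to 29.2 FPKM in Gr_1 and at 7.34 to 12.8 FPKM in KO and fl, whereas Tcirg1 is lowest in Gr_1.

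The remaining subunits gave 2 calls against fl, 1 in each comparison. Atp6v1b2, the B subunit of the catalytic head, had 51.5, 43.3 and 47.9 FPKM in KO, 58.6, 58.0 and 55.4 FPKM in Gr_1, and 59.2, 57.0 and 62.1 FPKM in fl; it was called lower in KO against fl (-0.32 ± 0.07, limma adjusted p = 0.0276), though not without KO C (adjusted p = 0.0956). Atp6v1h, a regulatory V1 subunit, had 4.52 to 4.68 FPKM in KO, 3.97 to 4.49 FPKM in Gr_1 and 4.91 to 5.19 FPKM in fl, and was called lower in Gr_1 against fl (-0.19 ± 0.06, limma adjusted p = 0.0321), a call lost without any one of Gr_1 B, Gr_1 C, KO C, fl A, fl B or fl C. Atp6v0d1, which joins V1 to V0, had 66.8 to 75.5 FPKM in KO, 82.4 to 86.4 FPKM in Gr_1 and 73.0 to 84.3 FPKM in fl. Its change was -0.13 ± 0.07 in KO against fl (95% interval -0.30 to 0.04, limma adjusted p = 0.299) and 0.12 ± 0.07 in Gr_1 against fl (-0.05 to 0.29, adjusted p = 0.187).

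The proton-binding ring subunits Atp6v0b and Atp6v0c had 82.8 to 100.2 and 30.2 to 35.1 FPKM in KO, 107 to 112 and 30.3 to 38.6 FPKM in Gr_1, and 96.1 to 97.0 and 36.6 to 47.4 FPKM in fl. The catalytic A subunit Atp6v1a stayed between 26.3 and 31.5 FPKM in all libraries, and Atp6ap1, an X-linked accessory protein of pump assembly, had 56.2 to 73.6 FPKM in KO, 80.4 to 84.5 FPKM in Gr_1 and 67.8 to 83.8 FPKM in fl. None of these was called against fl in the main fit. In Gr_1 against fl, Atp6v0c changed by -0.27 (limma adjusted p = 0.0919). It was called there by voom, with a replicate block, with quantile normalization and without the 10 most abundant genes in the scaling. Atp6v0b was called there with only the 6 libraries compared, and each of these genes with equal FPKM sums. Atp6v0c has the named pseudogenes Atp6v0c-ps1 and Atp6v0c-ps2, so its reads may have been split.

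KO against Gr_1 gave calls in both directions: 11 of the 31 genes were called higher in KO, beside 26.7% of all genes tested, and 8 lower, beside 28.9%. The genes higher in KO with the smallest adjusted p were 3 glycosidases, the sterol carrier and the amidase already given: Gusb by 0.72 ± 0.08 (limma adjusted p = 0.000134), Naaa by 0.74 ± 0.08 (0.000151), Npc2 by 0.76 ± 0.09 (0.000223), Glb1 by 0.88 ± 0.11 (0.000241) and Gaa by 0.89 ± 0.12 (0.00032). None of the pump subunits was higher in KO and 5 of 8 were lower, led by Atp6v0a1 (-1.39 ± 0.16, limma adjusted p = 0.000167), with Cln3 outside the pump (-1.12 ± 0.16, adjusted p = 0.000555). Atp6v1b2 (-0.27 ± 0.07, limma adjusted p = 0.0136), Atp6v0b (-0.26 ± 0.07, 0.0169) and Atp6ap1 (-0.38 ± 0.11, 0.0171) changed less, and all 3 turned to a positive value with equal FPKM sums. The count lower was 3 without Gr_1 A, 5 without Gr_1 B and 4 without KO B, and the share of all genes called in these fits is not given here. Without KO C, 10 genes were higher, beside 21.2% of all genes, and 4 lower, beside 25%, and Atp6ap1 was not among them (adjusted p = 0.0614).

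Psap was not called in the main fit (0.05, with a 95% interval of -0.24 to 0.34, limma adjusted p = 0.765), but was called with equal FPKM sums (adjusted p = 0.00222). The split of 11 higher and 8 lower depends on the scaling: voom gave 12 and 6, beside 29.6% and 27.4% of all genes. Leaving the 10 most abundant genes out of the scaling gave 15 and 2, beside 39.2% and 20.6%, and moved the median of all genes by 0.16. Quantile normalization gave 14 and 2, beside 31.8% and 25.5%. Equal FPKM sums gave 26 and 2, beside 54.7% and 13%, and moved the median of all genes by 0.38; 6 of the 8 pump subunits were then called higher in KO and 1 lower. The 10 most abundant genes held 27.9% ± 2.30 of the summed FPKM in KO, 38.9% ± 0.473 in Gr_1 and 24.7% ± 0.529 in fl. The lower level of Atp6v0a1 and Cln3 in KO was called under each of these scalings.

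Called genes were found with and without the E-box. In KO against fl, 2 of the 10 genes with CACGTG in a window (Lamp1 and Lgmn) were called lower, and 8 of the 18 without, beside 6.52% of all genes tested. Without KO C the counts were 2 and 5, as Scarb2, Laptm5 and Hexa lost the call. In Gr_1 against fl, 5 of the 10 were lower and 1 higher (Cln3), and 11 of the 18 lower and 1 higher, beside 31.4% and 30% of all genes. The median changes were -0.11 with and -0.26 without the E-box in KO against fl, and -0.26 and -0.49 in Gr_1 against fl. These are counts of presence of the letters only. Of the factors that bind the element, Tfeb had 11.9 ± 2.24 FPKM in KO, 22.1 ± 1.5 FPKM in Gr_1 and 15.5 ± 0.433 FPKM in fl, and Tfe3 6.04 ± 1.47, 12.8 ± 0.61 and 7.15 ± 0.444 FPKM in the same order. Both were called higher in Gr_1 against fl (Tfeb 0.49, limma adjusted p = 0.00655; Tfe3 0.76, adjusted p = 0.00105) and neither in KO against fl (adjusted p = 0.0908 and 0.307). Their relative Tfec had 6.36 ± 1.63 FPKM in KO, 0.780 ± 0.246 FPKM in Gr_1 and 6.92 ± 0.355 FPKM in fl, and was called lower in Gr_1 against fl (-2.16, limma adjusted p = 8.52e-06).

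Lysosomal genes outside the 32 were counted in the same way. Of 29 tested other hydrolases, 13 were called lower and 0 higher in KO against fl, beside 6.52% and 4.48% of all genes tested, with a median of -0.24. At an unadjusted p under 0.05 the counts were 16 and 0. Without KO C they were 7 and 0, beside 3.1% and 1.6% of all genes. In Gr_1 against fl 20 of these hydrolases were lower and 2 higher, beside 31.4% and 30% of all genes, with a median of -0.43. The smallest adjusted p in KO against fl among them belonged to Ifi30, the thiol reductase of antigen processing (70.4 ± 12 FPKM in KO, 34.9 ± 5.17 FPKM in Gr_1 and 162 ± 10.2 FPKM in fl; -1.20 in KO against fl, limma adjusted p = 0.00152). Galc and Fuca1 were the 2 called higher in Gr_1 against fl. Of 18 tested other membrane proteins, 6 were lower and 0 higher in KO against fl, beside 6.52% and 4.48% of all genes. The counts were 9 and 1 unadjusted. Without KO C they were 4 and 0, beside 3.1% and 1.6%. The scavenger receptor relative Cd68 and the nucleoside carrier Slc29a3 led those lower in KO. In Gr_1 against fl 11 were lower (61.1%, beside 31.4% of all genes) and 4 higher (22.2%, beside 30%). Cd68 had 45.5 ± 7.81 FPKM in KO, 37.0 ± 0.142 FPKM in Gr_1 and 106 ± 4.09 FPKM in fl.

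Of the 10 tested other pump subunits, limma called 0 in KO against fl (1 lower at an unadjusted p under 0.05), beside 6.52% lower and 4.48% higher of all genes. In Gr_1 against fl 2 were lower (Tcirg1 and Atp6ap2) and 2 higher (Atp6v1d and Atp6v1g1), 20% each, beside 31.4% and 30% of all genes. Of 21 regulators of lysosomes and of enzyme delivery, 1 was higher in KO against fl, the mannose 6-phosphate receptor Igf2r (0.24, limma adjusted p = 0.0264, and 0.111 without KO C), and 1 lower, Nagpa, which uncovers the mannose 6-phosphate tag (-0.44, adjusted p = 0.0111). Each is 4.76% of the regulators, beside 4.48% higher and 6.52% lower of all genes. In Gr_1 against fl 6 regulators were higher (28.6%, beside 30% of all genes) and 7 lower (33.3%, beside 31.4%). The cathepsins, proteases kept out of the 32, had 6 of 12 lower and 1 higher in KO against fl, beside 6.52% and 4.48% of all genes. Without KO C the counts were 4 and 1, beside 3.1% and 1.6%. In Gr_1 against fl 7 were lower (58.3%, beside 31.4% of all genes) and 3 higher (25%, beside 30%).

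**Figure D5:**
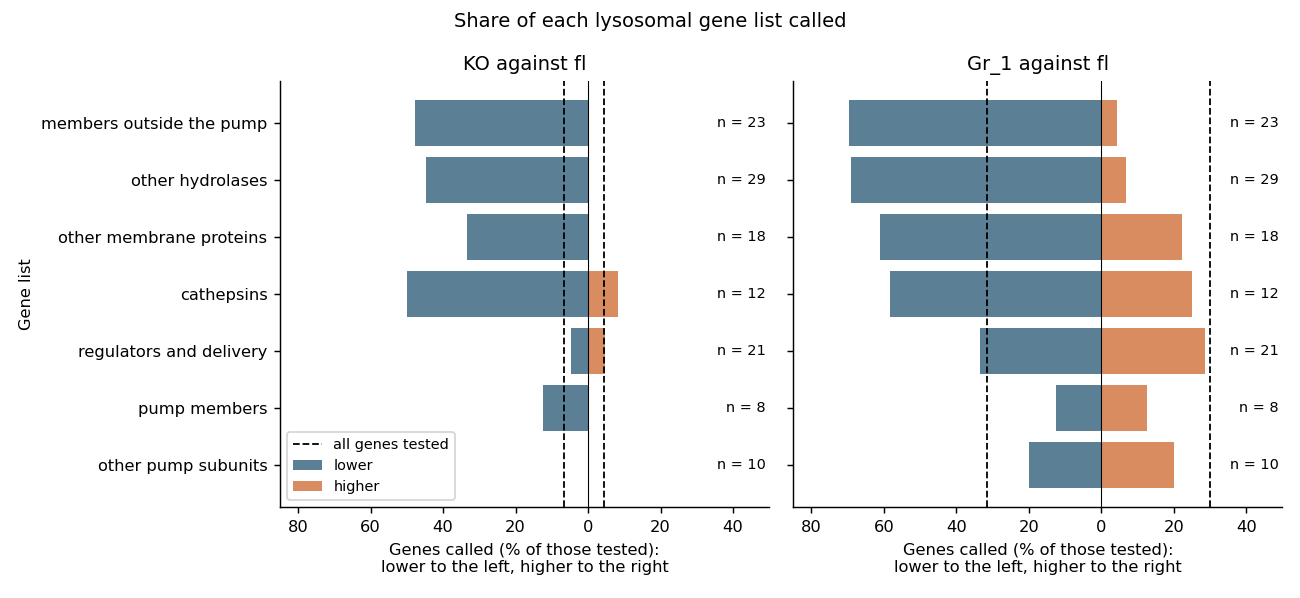
Share of the tested genes of each lysosomal list called lower (left) and higher (right) in KO against fl and in Gr_1 against fl, with dashed lines at the share of all genes tested and the number tested beside each bar. In KO against fl the bars to the left are longest for the cathepsins and the 23 genes outside the pump, and no bar is drawn for the 10 other pump subunits.

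Markers of cell types differed between the groups, in the direction of most lysosomal calls for some lists and not for others. Beside the counts that follow, 6.52% of all genes tested were lower and 4.48% higher in KO against fl. The shares were 3.1% and 1.6% without KO C, and 31.4% and 30% in Gr_1 against fl. The 10 monocyte markers, which include Csf1r, Ly6c2 and Ccr2, summed to 778 to 794 FPKM in KO, 507 to 577 FPKM in Gr_1 and 1185 to 1336 FPKM in fl; 8 of 10 were called lower in KO (7 without KO C) and 9 of 10 in Gr_1, each against fl. The 13 late neutrophil markers summed to 71248 to 102648 FPKM in KO, 174304 to 177112 FPKM in Gr_1 and 65056 to 72400.0 FPKM in fl, with 6 higher in KO and 12 in Gr_1. The 5 early granulocyte markers summed to 3103 to 6571 FPKM in KO, 187 to 295 FPKM in Gr_1 and 3795 to 5654 FPKM in fl, and all 5 were called lower in Gr_1 against fl, while limma called 0 in KO against fl (0 also at an unadjusted p under 0.05 and by voom). The 12 macrophage markers summed to 73.0 to 81.4 FPKM in KO, 101 to 112 FPKM in Gr_1 and 81.4 to 86.0 FPKM in fl. Of the 8 tested, 3 were lower in KO against fl (0 without KO C), and 6 were higher and 2 lower in Gr_1 against fl.

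The 5 B cell markers summed to 36.7 to 67.4 FPKM in KO, 204 to 226 FPKM in Gr_1 and 54.2 to 76.1 FPKM in fl, and all 5 were called higher in Gr_1. Of the 7 T cell markers 3 were tested, and all 3 were called higher in KO against fl, beside 4.48% of all genes. So were 3 of 3 tested among the 5 NK cell markers, and 4 of 6 markers of basophils, mast cells and eosinophils. Without KO C the counts were 2 of 2, 1 of 2 and 2 of 6, beside 1.6% of all genes. Mean FPKM reached 1 for 3 T cell and 4 NK cell markers in KO, 2 and 1 in Gr_1, and 1 and 1 in fl. Some may have been tested only because they were high in KO, so the T and NK cell counts are description only. The T cell markers summed to 8.80 to 10.6 FPKM in KO, 7.70 to 10.3 FPKM in Gr_1 and 2.14 to 3.44 FPKM in fl, and the NK cell markers to 10.1 to 22.1, 1.92 to 2.70 and 5.27 to 7.39 FPKM in the same order of groups. The basophil, mast cell and eosinophil markers summed to 4498 to 9153 FPKM in KO, 1303 to 1679 FPKM in Gr_1 and 4048 to 8641 FPKM in fl. Of 6 erythroid and platelet markers, 5 were called higher in Gr_1 against fl, and limma called 0 in KO against fl (4 higher at an unadjusted p under 0.05, and 1 by voom). No marker of these lists was at 0 in all libraries. Their part in the lysosomal differences was not tested.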

How the data were processed

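RNA-seq of 9 mouse libraries (3 KO, 3 Gr_1, 3 fl) was analysed from one table of FPKM values per gene that the authors deposited. Per the labels' protocols, a Macherey-Nagel kit served to isolate total RNA, and sequencing was paired-end on a NovaSeq. The submitters' processing notes name featureCounts 1.5.0-p3, DESeq2 1.16.1 and the builds mm10 and GRCm38; no source used here names an aligner. The genes and lists were chosen with earlier results of these data known.

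The 12289 genes that reached 1 FPKM in 3 or more libraries were tested on log2(FPKM + 1) with limma 3.58.1 (R 4.3.3; lmFit, eBayes with a mean-variance trend), 1 term per group, with Benjamini-Hochberg adjustment and a threshold of 0.05. The fit was first tested on simulated data. Named for a fitted change were all called genes, 7 fixed genes called or not, and, in KO against Gr_1, the 5 called genes per direction with the smallest adjusted p; values of others are added as description. FPKM times GENCODE M21 exon length gave whole fragments, within 0.02, for 97.2% to 97.5% of values under 1000 fragments; 54495 genes matched and 37 did not. A count of 3 fragments for a gene of 1 kb corresponds to 0.136 to 0.187 FPKM. These limits cover counting error only. Recovered fragments entered only the voom alternative. Other alternatives were pseudocounts, level filters, scalings, a replicate block, fits on the 6 libraries compared, and leaving out each library. Same-letter libraries did not deviate together, so letters were not used as pairs. Exon overlaps were read from GENCODE M21, and promoters from RefSeq GRCm38.p6.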

Additional observations from a re-analysis of the deposited data

How the results depend on the processing

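Of 845 recomputed values for 47 named changes, 755 kept their direction and side of the threshold, 73 lost the call, 3 gained it and 14 changed sign. In KO against fl, the count of genes called lower was 7 with only the 6 libraries compared and ran between 7 and 10 when each library was left out, and the count called higher between 0 and 2. In Gr_1 against fl, 29 were called lower with equal FPKM sums, beside 54.3% of all genes. In KO against Gr_1, 26 were called higher with equal FPKM sums, beside 54.7% of all genes. The count lower was 2 with equal FPKM sums, with quantile normalization and without the 10 most abundant genes in the scaling, beside 13%, 25.5% and 20.6% of all genes. Leaving out each library gave 3 to 9 lower. The causes were not tested. Library letters did not pair the samples (same-letter correlations -0.06 to 0.14). With the replicate block, 8 genes were lower and 0 higher in KO against fl, 17 lower and 2 higher in Gr_1 against fl, and 6 lower and 11 higher in KO against Gr_1. The share of all genes called is not given for the block, the 6-library fits or, KO C aside, the fits with a library left out. Those counts therefore cannot be read against all genes.

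Lamp2 in KO against fl came to 0.0132 (quantile), 0.0340 (without the 10 most abundant genes) and -0.132 to 0.00908 with a library left out. Lamp2 in Gr_1 against fl came to -0.10 (quantile), -0.37 (equal sums, limma adjusted p = 0.00967), -0.0711 (without the 10) and -0.0528 to 0.0879 with a library left out. Atp6v0d1 in Gr_1 against fl came to -0.0307 (quantile) and -0.29 (equal sums). In KO against Gr_1, equal sums gave Atp6v1b2 0.16, Atp6v0b 0.18 (0.012 with quantile) and Atp6ap1 0.0514. In the window from 100 bases before the start, the full CLEAR palindrome was found for 0 genes, beside 0.289% of all genes. TCACGTG was found for 6 (21.4%, beside 2.95%) and CACGTG for 6 (21.4%, beside 5.0%). With 3 libraries a group, changes of genes at a few FPKM are the least precise.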

Other observations

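Several of the lysosomal genes share exon bases with a neighbour, which matters where counting does not use strand. Lamp1 shares 9.31% of its exon bases with Grtp1 on the other strand, which stood at 0.160 to 0.359 FPKM in KO, 0.0762 to 0.161 FPKM in Gr_1 and 0.188 to 0.2998 FPKM in fl. Hexa shares 12.8% with Tmem202 on the other strand, at no more than 1.29 FPKM in any library. Npc1 shares 5.31% with Rmc1 and Gm15956 on the other strand, and Rmc1 averaged 8.78 ± 1.93 FPKM in KO, 14.7 ± 0.594 FPKM in Gr_1 and 7.20 ± 0.433 FPKM in fl. Glb1 shares 5.49% with Tmppe on its own strand, at 3.88 ± 0.393 FPKM in KO, 2.71 ± 0.338 FPKM in Gr_1 and 4.51 ± 1.09 FPKM in fl. The part of these neighbours in the values was not tested.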
